A study of Drosophila melanogaster with 3 samples.

Results

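Lk6, HmgD and HmgZ are 3 of the 13968 protein-coding genes against which binding of the CG4617-eGFP fusion protein can be read in these data. Lk6 and HmgD were chosen by the deposited signal: each holds, away from annotated starts, a region among the 20 highest signals of the thresholded list. HmgZ was added as the paralogue that overlaps HmgD. Because the signal of these regions made the choice, it is given here as a description and no test is attached to it. The libraries are chromatin immunoprecipitations with an anti-GFP antibody from a stable transgenic fly line in which GFP is joined to the C terminus of CG4617, made from whole embryos 0 to 24 hours old with both sexes pooled and chromatin sonicated to 200 to 800 bp. All 3 libraries are biological replicates, from separate biosamples, of that 1 group, CG4617-eGFP anti-GFP ChIP; embryos of another genotype, or without the transgene, are not among them. The labels do not state the promoter that drives the transgene, and mixed stages and tissues are averaged in each library. A control alignment entered the authors' region calling but has no list of its own here, so nothing below is a comparison between groups.

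Lk6 encodes a serine/threonine kinase, the fly member of the MAP kinase-interacting kinases. Its kinase family takes signals from MAP kinases and phosphorylates eIF4E, the protein that binds the mRNA cap to start translation. HmgD and HmgZ encode small non-histone chromosomal proteins with an HMG box, a domain that bends DNA, and HmgD is known as an abundant chromatin component of early embryos. CG4617 itself is described here only as the tagged protein.

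The Lk6 site is shown first because its sequence can be read beside the values. On arm 3R of dm6, the thresholded region spanned chr3R:11760892-11761206 and its summit, the position the authors deposited as the point of highest signal, was at 11761052. The 201 bases centred on it, chr3R:11760952-11761152 on the plus strand, are printed with ACAGTG and GAGAG in capitals, and the 2 lines after it give the annotated starts of Lk6-RA and Lk6-RB on the gene's own minus strand, from 100 bases upstream through the first 20 transcribed bases in capitals. The summit window was 67.2% A and T, against 50.8% at the RA start and 41.7% at the RB start. Sequences are from the RefSeq copy of the same assembly.
Lk6 intronic summit: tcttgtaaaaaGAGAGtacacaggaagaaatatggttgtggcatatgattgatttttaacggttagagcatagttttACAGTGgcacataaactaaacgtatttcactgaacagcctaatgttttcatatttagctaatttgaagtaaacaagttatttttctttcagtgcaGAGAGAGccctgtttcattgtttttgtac
Lk6-RA start: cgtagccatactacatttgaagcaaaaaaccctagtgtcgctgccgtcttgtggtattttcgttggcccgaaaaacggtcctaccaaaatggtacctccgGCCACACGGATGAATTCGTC
Lk6-RB start: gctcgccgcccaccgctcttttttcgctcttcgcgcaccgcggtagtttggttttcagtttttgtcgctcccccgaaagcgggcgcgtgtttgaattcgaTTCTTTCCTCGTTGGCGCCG

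Lk6 (FBgn0017581) runs over 13527 bp of 3R, from 11750931 to 11764457 on the minus strand, and has 2 annotated transcripts with 2 starts. Lk6-RA begins at 11764457 and Lk6-RB at 11760079. The bound summit lay between them, 973 bp upstream of the RB start and 3405 bp downstream of the RA start. It was intronic only with respect to RA, inside a 6991 bp intron from 11756493 to 11763483. With respect to RB it was upstream of the transcript. The label "intronic" is therefore specific to the longer transcript.

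The Lk6 region had a deposited signal of 1185 in the thresholded list, rank 12 of 5558 and 5.42 times that list's median of 219. In the replicate lists the same place had a signal of 365, 437 and 374 in replicates 1, 2 and 3. It ranked 16 of 30000, 20 of 17251 and 14 of 14368. The signal scale is not stated and each list has its own, so signals are compared only within a list. The geometric mean rank was 16.5, and log10 rank averaged 1.22 ± 0.08 (SD, n = 3). All 3 replicates placed the region near the head of their lists. These ranks are not independent of the choice, because the thresholded signal was made from the same 3 libraries pooled.

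The position was also tight. The replicate summits were at 11761058, 11761052 and 11761058, a range of 6 bp. Over the 634 intronic thresholded regions held by all 3 replicates, the median range was 47 bp, with quartiles of 25 and 78.8 bp, and over 3884 promoter regions the median was 76 bp. Summit range was not compared with regions of like signal. The region was 325, 266 and 252 bp wide in replicates 1, 2 and 3, below the median region widths of 460, 420 and 396 bp in those lists. In the thresholded list it was 315 bp wide. There the 5 intronic regions among the 20 strongest, this one included, had a median width of 370 bp, against 440 bp for all intronic regions. Below-median width was therefore not particular to Lk6. The 5 weaker thresholded regions at the 3 genes were each 440 bp wide, the median width of the thresholded list.

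Lk6 starts carried far less signal than its intron. At the RA start a thresholded region with summit 11764372, 85 bp into the transcript, had a signal of 150, rank 4724. The intronic region was 7.91 times as strong in the thresholded list. In replicates 1, 2 and 3 it was 3.76, 5.51 and 9.68 times the strongest summit within 500 bp of that start. The regions that contain this RA summit ranked 2514, 6240 and 13515 in replicates 1, 2 and 3, so this weak region moved widely between lists. Taking any summit within 500 bp of the RA start, the strongest lay 41 bp downstream in replicate 1 (signal 97.1) but 348 and 356 bp downstream in replicates 2 and 3 (signals 79.4 and 38.6). At the RB start no summit was listed within 500 bp in the thresholded or pooled list, nor in replicate 2 or 3. Replicate 1, whose list is the longest, had 2 weak summits there, the stronger with signal 30.3 and rank 9631. The remaining thresholded regions within 2 kb of Lk6 lay beyond its 3' end, at the starts of CG6923. They had signals of 221 and 164, with summits 150 bp downstream of the CG6923-RA start and 51 bp upstream of that of CG6923-RC. Counted by the rule, Lk6 thus had 4 thresholded regions, of which 2 had summits inside the gene, and 3 further pooled regions below the threshold with signals of 73.5 to 80.2.

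**Figure D1:**
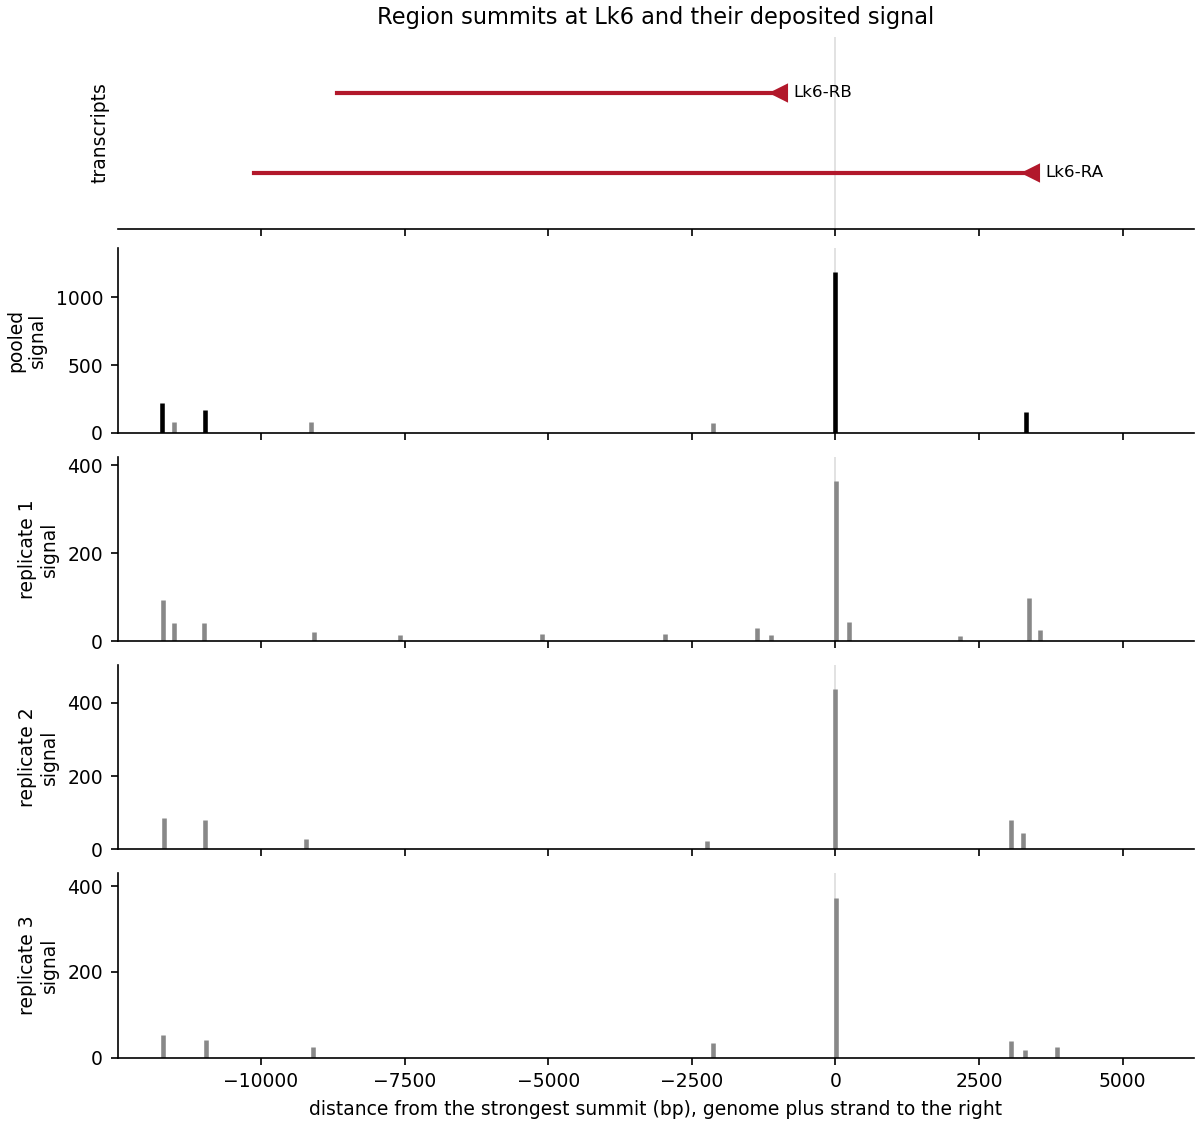
Transcripts of Lk6 (top; line, extent of the transcript; arrowhead, annotated start and direction) and region summits in the pooled list and the 3 replicate lists, by distance from the strongest summit in bp; bar height is the deposited signal, with a separate scale per list, and black bars in the pooled panel are regions also in the thresholded list. The tallest bar in each panel stands at the intronic site between the 2 starts, 973 bp upstream of Lk6-RB, with a pooled signal of 1185 against 150 at the Lk6-RA start.

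HmgD and HmgZ lie on opposite strands of 2R and overlap at their 5' ends. HmgD (FBgn0004362) runs from 21701458 to 21716727 on the plus strand and HmgZ (FBgn0010228) from 21697488 to 21707861 on the minus strand, with 6404 bp in common. Their predicted proteins of 112 and 111 residues were identical at 74 of 109 aligned positions, 67.9%. The HmgD coding exons lie in the last part of the gene, and only transcript HmgD-RD begins far upstream, with a 13341 bp intron, while HmgD-RA and HmgD-RC begin at 21713356 and HmgD-RB at 21714136.

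The region named for HmgD was as much a region of HmgZ. It spanned chr2R:21703173-21703652 with its summit at 21703437, inside the long intron of HmgD-RD and also inside introns of HmgZ-RB (5722 bp) and HmgZ-RD (9024 bp). Its nearest start was that of HmgZ-RA and HmgZ-RC at 21702830, with the summit 607 bp upstream. The nearest HmgD start, that of RD, was 1979 bp away, and the summit lay 9919 bp upstream of the start of HmgD-RA and HmgD-RC and 10699 bp upstream of that of HmgD-RB. From HmgZ-RB it was 1064 bp downstream and from HmgZ-RD 4424 bp downstream. By distance to a start, the site was closer to HmgZ. The data do not show which gene, if either, it bears on.

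The HmgD and HmgZ region had a signal of 1165 in the thresholded list, rank 15 and 5.33 times the list median. In replicates 1, 2 and 3 its signal was 268, 487 and 409. It ranked 87 of 30000 in replicate 1 and 11 in both other replicates, of 17251 and 14368. Replicate 1 has the longest list, but ranks count from the highest signal, and Lk6 ranked 16 in that list. Averages and distances of rank given here mix lists of different lengths. Relative to the median of its own list the signal was 13.6, 14.3 and 15.9 times as high in replicates 1, 2 and 3. That median depends on how many weak regions a list holds, so these values are not compared between lists. For Lk6 these values were 18.6, 12.8 and 14.6. The log10 rank averaged 1.34 ± 0.52 (SD, n = 3), equal to a geometric mean rank of 21.9, and without replicate 1 that rank was 11.0. Between the sites, the Lk6 signal was 1.36 times the HmgD signal in replicate 1 but 0.898 and 0.914 times in replicates 2 and 3, and 1.02 times in the pooled list. Their order was therefore not shared by the replicates.

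The shape of the HmgD and HmgZ region differed too. In replicate 1 a single 459 bp interval was listed 2 times with summits 199 bp apart, at 21703359 (signal 268, rank 87) and 21703558 (signal 157, rank 767), on either side of the thresholded summit. Such double entries were uncommon: 89 intervals in the replicate 1 list of 30000 regions and 1 in the replicate 2 list of 17251. The thresholded list of 5558 regions had 37 and the pooled list of 20051 had 44. Replicates 2 and 3 listed 1 entry each, 375 and 368 bp wide, with summits at 21703429 and 21703465. The strongest summits thus ranged over 106 bp, above the upper quartile of 78.8 bp for intronic regions, while at Lk6 they ranged over 6 bp.

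Elsewhere at HmgD and HmgZ the signals were lower. The 2 other thresholded regions at these genes had intronic summits as well. One, at 21700869, lay in HmgZ introns 589 bp upstream of the HmgD-RD start and had a signal of 187, with ranks 6249, 3366 and 2434 in replicates 1, 2 and 3. The other, at 21706187, lay in introns of both genes 1674 bp downstream of the HmgZ-RD start and had a signal of 177, with ranks 5901, 2317 and 6852. These regions counted for both genes, so HmgD and HmgZ each had the same 3 thresholded regions. None of the 6 annotated start positions of HmgD and HmgZ had a thresholded summit within 500 bp. In the pooled list, below the threshold, the start of HmgD-RA and HmgD-RC had a summit 27 bp downstream with signal 113 and rank 6370, and the strong region was 10.3 times that. Replicate 1 listed a summit 2 bp from that start (signal 58.7), replicate 2 one 283 bp downstream (55.2) and replicate 3 none within 500 bp. The strong region was 4.56 and 8.82 times these signals in replicates 1 and 2. The start of HmgZ-RA and HmgZ-RC, the nearest to the strong region, had no summit within 500 bp in any of the 5 lists.

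**Figure D2:**
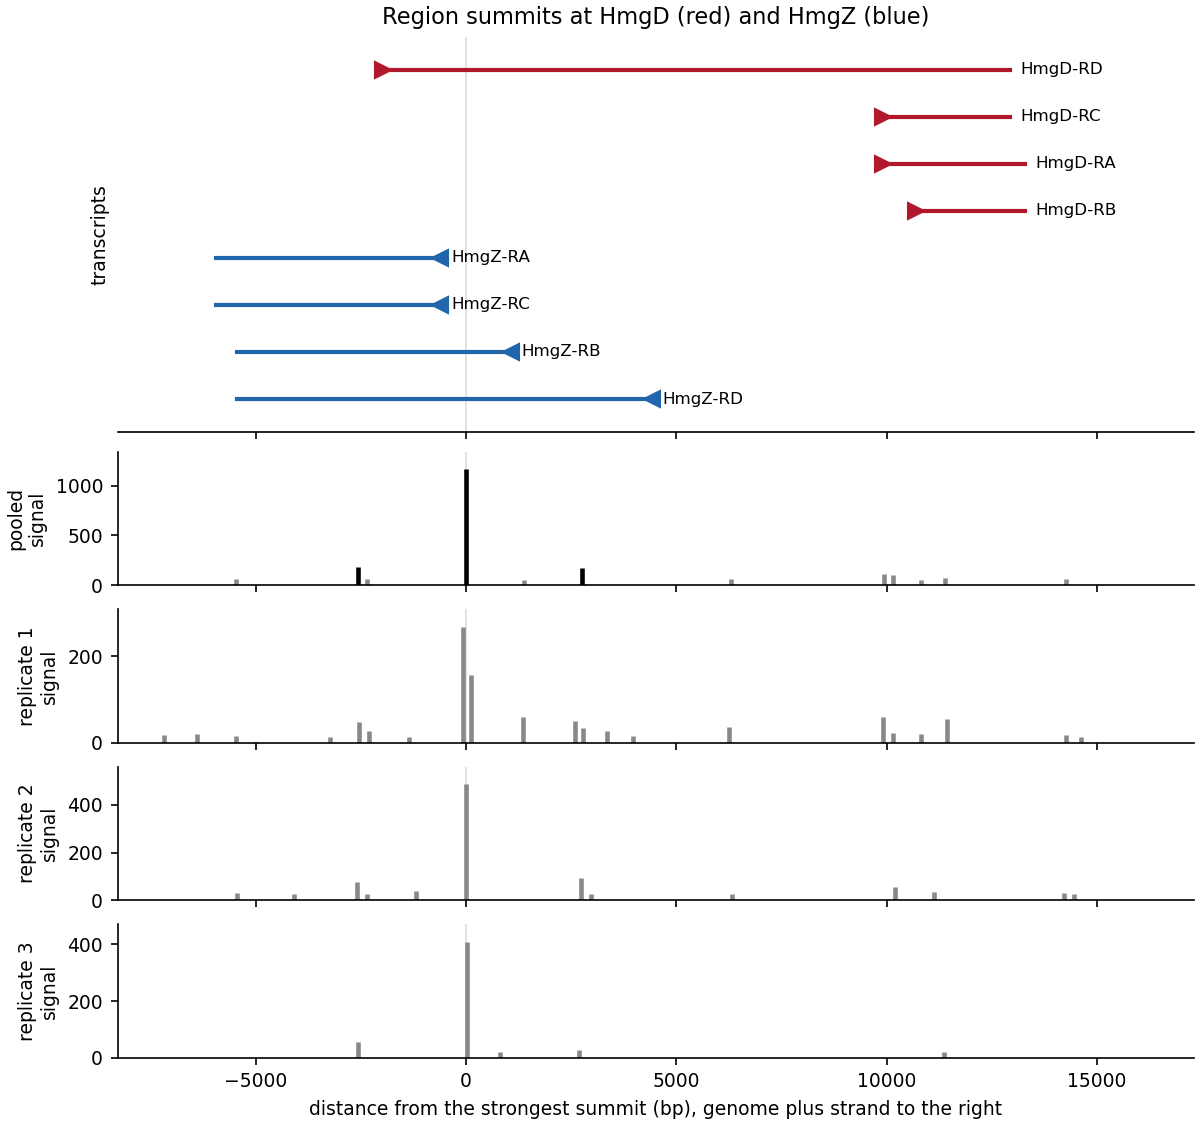
Transcripts of HmgD (red) and HmgZ (blue) with arrowheads at the annotated starts, and region summits in the pooled list and the 3 replicate lists by distance from the strongest summit in bp; bar height is the deposited signal on a separate scale per list, and black bars in the pooled panel are also in the thresholded list. The tallest bar lies in the overlap of both genes, 607 bp upstream of HmgZ-RA and 9919 bp upstream of HmgD-RA, and is split into 2 summits 199 bp apart in replicate 1.

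**Figure D3:**
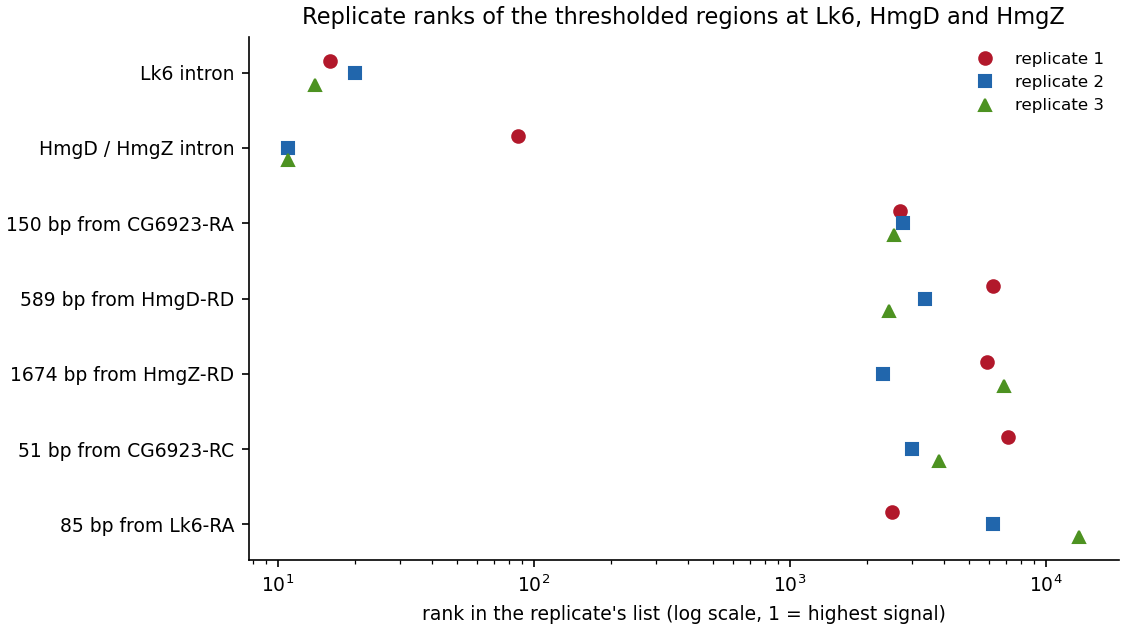
Rank in each replicate list (log axis, 1 is the highest signal) of the 7 thresholded regions at Lk6, HmgD and HmgZ, named by site or by distance to the nearest start and ordered by thresholded signal. The strong sites rank between 11 and 87 in every replicate, and the other 5 regions rank between 2317 and 13515.

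Against all genes, carrying some region was common and carrying an intronic strongest region was rare. All 3 genes had a thresholded region inside them or within 2 kb, as did 7261 of 13968 protein-coding genes, 52.0% (95% Wilson interval 51.2 to 52.8, counting error only). For all 3 the strongest of these regions had an intronic summit more than 500 bp from every protein-coding start, which was so for 354 genes, 2.53%. All 3 also hold an intronic thresholded summit, as do 492 genes, 3.52%, and have one of the 20 strongest regions within 2 kb, as do 47 genes, 0.336%. The last 3 shares describe the rule that chose Lk6 and HmgD, so nothing is read from them, and HmgZ shares its region with HmgD.

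Among the 658 intronic thresholded regions, the Lk6 site was number 3 and the HmgD and HmgZ site number 4 by signal. Those above were in introns of ush (signal 1630), a cofactor of GATA factors, and CG11050 (1321), and CG32772 (1059.6, rank 20) followed. Just outside the 20 strongest came the promoter regions of CG5611 (1032) and larp (1027), after Shc (1062) at rank 19. The next intronic region, in CG9663, had a signal of 955 and rank 29. The median intronic signal was 186. The 5 intronic regions among the 20 strongest lay 607 to 1369 bp from a start, while the intronic median was 2342 bp and its quartiles 1096 and 5664 bp. Lk6 and HmgD with HmgZ were the only 2 of these 5 within 1000 bp of a start, as were 139 of all 658 (21.1%). They were also the only 2 of the 5 upstream of their nearest start where that start belongs to a gene that contains them. This held for 148 of 658 (22.5%). Other starts of the containing genes were not counted. The CG11050 and CG32772 summits lay downstream of a start of their own gene, by 1020 and 1260 bp, and that in ush was 1369 bp upstream of the neighbouring gene cbt.

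**Figure D4:**
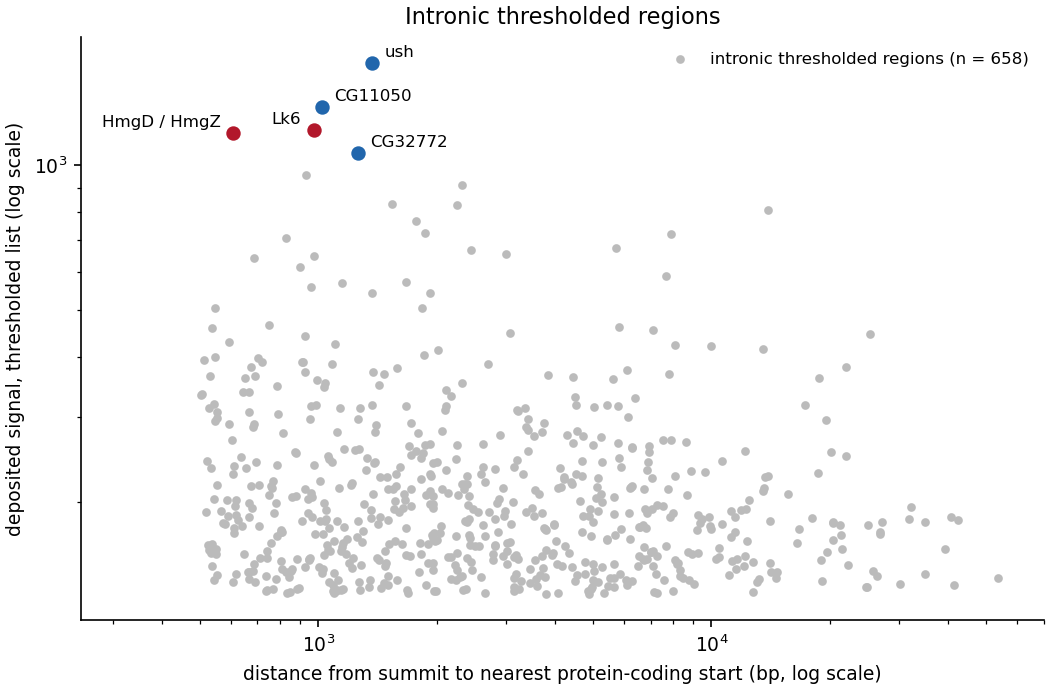
Deposited signal in the thresholded list against distance from the summit to the nearest protein-coding start (both log axes) for the 658 intronic regions; red points are the Lk6 and the HmgD and HmgZ sites, and blue points the other intronic regions among the 20 strongest. The red points lie at 973 and 607 bp with signals of 1185 and 1165, closer to a start than the 3 blue points.

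Replicate ranks were used to find the regions most like each site among intronic regions, by the Euclidean distance of log10 rank over the 3 replicates. Nearest to Lk6 were the regions in CG32772 (ranks 61, 16 and 20 in replicates 1, 2 and 3, distance 0.609), CG11050 (9, 5 and 13, distance 0.653) and Tlk, a gene for a Tousled-like kinase (55, 37 and 45, distance 0.785). Nearest to the HmgD and HmgZ site were CG32772 (distance 0.343), CG9663 (75, 25 and 35, distance 0.620) and Lk6 itself (distance 0.787). CG32772 thus headed both lists. Like the HmgD and HmgZ site it ranked lowest in replicate 1. So did all of the 12 strongest intronic regions, CG9663 and Tlk included, except CG11050 and Lk6.

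Motifs were searched as exact letters on both strands within 100 bp of each summit. Of the 11 searched, 1 was found at Lk6 and 2 at HmgD and HmgZ. A and T made up 67.2% of the Lk6 window and 69.7% of the HmgD and HmgZ window. The medians were 65.2% for intronic and 60.7% for all thresholded windows. With intronic quartiles of 60.7% and 68.7%, the Lk6 window lay between them and the HmgD and HmgZ window above. In the Lk6 window only the GAGA-type motif GAGAG was found, 3 times, centred 87 bp to the left of the summit (lower coordinate) and 74 and 76 bp to the right, where the last 2 matches overlap. GAGAG was in 24.9% of intronic and 19.6% of all thresholded windows, and in 31.7% of windows of the same length 500 bp to either side of intronic summits. In the HmgD and HmgZ window TATAAA was found 23 bp to the left of the summit and the GATA-type motif AGATAA was found 90 bp to the right. TATAAA was in 37.4% of intronic and 26.0% of all thresholded windows and in 21.7% of the windows to either side. AGATAA was in 13.4% of intronic and 10.8% of all thresholded windows and in 12.2% of those to either side. The letters TATCGATA (DRE), CGATA (BEAF), GGTCACAC (M1BP), CACGTG (E-box), CAGCTG (E-box), CAGGTA (Zelda), AGGTGGC (CTCF) and AACCGGTT (Grh) were in neither window. The shares of TATCGATA and GGTCACAC were 0.152% and 0.456% of intronic windows and 7.66% and 8.83% of all thresholded windows.

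The letters ACAGTG, picked after the strongest intronic windows of this list had been seen, were 20 bp to the left of the Lk6 summit. They occurred in 24.8% of intronic windows and in 8.36% of windows of the same length 500 bp to either side of those summits, shares that the way of picking favours. They were not within 100 bp of the summits in HmgD and HmgZ, ush, CG11050 or CG32772, and at HmgD and HmgZ the nearest match was 193 bp from the summit. The Lk6 and HmgD windows shared no run longer than 9 bases on either strand. Of the 5557 thresholded windows other than that of Lk6, 2413 (43.4%) shared a run at least that long with the Lk6 window. All 286 runs of 30 bases in the Lk6 region and all 451 in the HmgD and HmgZ region occurred only 1 time on the chromosome arms, so neither site is a sequence repeated elsewhere at that length.

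At the starts themselves, from 250 bases upstream to 50 downstream, neither TATCGATA nor GGTCACAC was found at any of the starts of the 3 genes. Those letters are in 7.98% and 6.72% of such windows over 19275 start positions. GAGAG was found at the Lk6-RB start, at all 3 start positions of HmgD and at the start of HmgZ-RA and HmgZ-RC, and in 33.2% of all start windows. CGATA was found at the starts of Lk6-RB, HmgD-RD, HmgD-RB and HmgZ-RB, and in 45.7% of all start windows. TATAAA was found in the start windows of Lk6-RA, Lk6-RB and HmgD-RB, and in 42.3% of all start windows. Its first letter was at -227 bp for Lk6-RA, -163 bp for Lk6-RB, and -205 and -203 bp for HmgD-RB (negative is upstream). CAGCTG was found at the start of HmgZ-RA and HmgZ-RC, and in 17.9% of all start windows.

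The lists of genes with related roles are set beside all genes. Over the 7261 protein-coding genes with a thresholded region, the strongest one had its summit within 500 bp of a start for 6726 (92.6%) and in an intron for 354 (4.88%), and its median signal was 271. Of 19 other HMG-box genes, 13 (68.4%) had a thresholded region inside them or within 2 kb, beside 52.0% of all genes. The strongest such region had its summit within 500 bp of a start, of that gene or a neighbour, for 11 of them. It was in an intron for 1 and between genes for 1, so promoter summits prevailed here as they did over all genes. Named after their values were seen, the exceptions were Dsp1 (228, in an intron of its neighbour CG9921) and Sox21b (276). Signals ran from 143 to 803 with a median of 228, all below the 1165 of HmgD and HmgZ. HmgD was chosen for its high signal, so nothing is read from that difference. The strongest of the 13 was at Sox14 (signal 803, ranks 223, 38 and 43 in replicates 1, 2 and 3), a SOX-family transcription factor gene. Next was bbx (500.02, ranks 1373, 203 and 160). The region counted for TFAM, the mitochondrial DNA-packaging factor (364), had its summit 9 bp from the start of its neighbour CG5412. Also nearest to another gene's start were the summits counted for pan, Ssrp and mael, named after their values were seen. Likewise named afterwards, polybromo and cic had no replicate 2 or replicate 3 region over the summit.

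Of 21 other genes of the eIF4E, MAP kinase and TOR pathways around Lk6, 17 (81.0%) had a region, beside 52.0% of all genes. For 16 of the 17 the strongest summit lay within 500 bp of a start, of that gene or a neighbour, as for 92.6% of all genes with a region. Signals ran from 131 to 828 with a median of 347. Raf, the kinase at the head of the MAP kinase cascade, had the strongest at 828 (ranks 181, 33 and 78 in replicates 1, 2 and 3), and it was the 1 gene of these whose strongest region was intronic, 2255 bp downstream of the Raf-RE start. Next came S6k (617), which encodes the kinase of ribosomal protein S6, eIF4G2 (596), which encodes a scaffold of the cap-binding complex and shares that start with CG33111, and Ras85D (549), which encodes the Ras GTPase. The S6k summit lay 6 bp from the start of kri and the Ras85D summit 94 bp from that of Rlb1, so these regions are shared with neighbours. Also nearest to another gene's start were the summits counted for eIF4EHP, eIF4E6, Dsor1, eIF4A and p38c, named after their values were seen. The p38c region is also that of p38a. Named after their values were seen, eIF4E1 had a signal of 391 with the summit 27 bp from its start, and Thor, which encodes the eIF4E-binding protein, had 189 with the summit 15 bp from its start. Ras85D and Thor had no replicate 3 region over the summit. No test of either list was made, and both contain genes of unequal length with unequal numbers of starts.

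**Figure D5:**
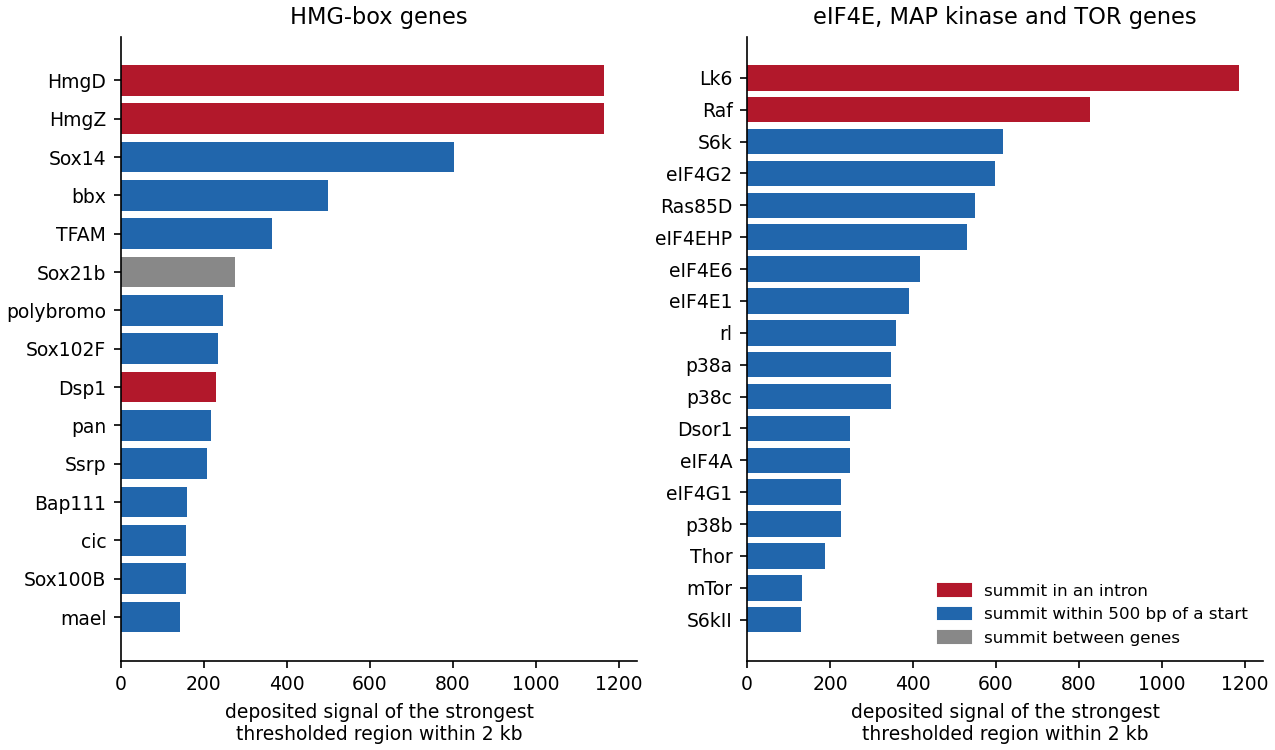
Deposited signal of the strongest thresholded region inside or within 2 kb of each HMG-box gene (left) and each gene of the eIF4E, MAP kinase and TOR list (right) that has one, coloured by where the summit lies; the region can belong to a neighbouring gene. Lk6 at 1185 and HmgD and HmgZ, with 1 shared region at 1165, head the lists, above Raf at 828 and Sox14 at 803. Lk6 and HmgD were chosen for their high signal, so nothing is read from that order.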

How the data were processed

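ChIP-seq region lists of 3 biological replicates of 1 group were read. Per the labels' file listings, each replicate list came from that library and 1 control alignment, the pooled list from all 3 libraries, and the thresholded list from these by the irreproducible discovery rate procedure (IDR). No source used here names the caller, the aligner or the IDR cutoff. The signal per region is the authors' deposited value, on an unstated scale. Depth in reads is unknown, so no interval on a signal can be given. Lists in dm6 were used, counted from 1. The dm3 lists were not used here, as no genome or annotation of that build was at hand.

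Genes and starts were taken from Ensembl release 115, with 19275 start positions of protein-coding genes, and sequence from RefSeq. A region belonged to a gene when it overlapped it or lay within 2 kb (2000 bp). A summit more than 500 bp from every protein-coding start and in no exon was intronic if inside a protein-coding gene. Regions were ranked by signal within a list, and a replicate's value is its strongest region over the thresholded summit. Proteins of HmgD and HmgZ were translated from the annotated coding exons and aligned globally with Biopython 1.88. Python 3.11.15 was used. The genes, lists and alternatives were chosen with earlier results of these data known. Genes named are the members, those at the edge of the 20 strongest regions and the intronic ones among them, the 3 regions with the most similar replicate ranks per site, neighbours, and up to 5 genes per list with the highest signal; larger lists are otherwise counts. Genes outside this rule are marked in the text.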

Additional observations from a re-analysis of the deposited data

How the results depend on the processing

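The strong sites themselves were in every list, and what varied was how they are counted. With a promoter window of 1000 bp instead of 500 bp, 0 of the 2 sites would be called intronic, since both lie within 1000 bp of a start, and the share of genes with an intronic strongest region was 1.79% (3.44% with 250 bp, 2.40% with starts of all genes, noncoding included). With the 2779 strongest thresholded regions, 2 regions were left at Lk6, 1 at HmgD and 1 at HmgZ. The summit of replicates 1 and 3 put Lk6 979 bp from its start, and that of replicate 1 put the HmgD and HmgZ site 529 bp from its start. Within 50 bp of the summit, 0 listed motifs were found at Lk6 and 1 at HmgD and HmgZ. The share of genes with a region was 46.9% with a flank of 1 kb, 62.5% with 5 kb, 36.0% with the 2779 strongest regions and 48.5% with regions held by every replicate, or 48.7 to 51.4% leaving out 1 replicate. Mean log10 rank ran from 1.18 to 1.25 at Lk6 and from 1.04 to 1.49 at HmgD and HmgZ when 1 replicate was left out. The dm3 lists were not run as an alternative, because signals differ between builds and no region could be matched by an identical value. No paired analysis was possible because there is 1 group and no test.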
